A study of Homo sapiens with 12 samples.

Results

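To examine how the transcriptome of SK-UT-1 cells differed after exposure to I-BET 762, the libraries of cells treated with this BET inhibitor at 5 µM were compared with those of cells given the vehicle DMSO, both at 48 h. SK-UT-1 is an established line derived from a human uterine leiomyosarcoma (uLMS), a malignant tumour of the smooth muscle lineage, and total RNA was sequenced with a strand-specific kit. The sample labels describe 12 samples, 4 each for DMSO, I-BET 762 and JQ1. The comparison used 6 of them, DMSO replicates 13, 14 and 15 and I-BET 762 replicates 21, 22 and 23, and values for DMSO replicate 16 and I-BET 762 replicate 24 were not analysed here. All symbols with a normalized count of at least 10 in at least 3 of these 6 libraries were tested, which gave 14557 of the 22784 symbols in the table. A normalized count is the number of reads on a gene after scaling each library to a common depth. The labels do not say whether the libraries came from separate cultures, so the p-values measure the spread between libraries, which may be technical. The 4 JQ1 libraries were in the same fit, so their spread also enters the standard errors and p-values.

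BET proteins, among them BRD2, BRD3 and BRDT, carry paired bromodomains that bind acetylated lysines on histones and recruit the transcription elongation factor P-TEFb to promoters and enhancers. I-BET 762 occupies the acetyl-lysine pocket of these bromodomains and displaces the proteins from chromatin. HEXIM1, an inhibitor of P-TEFb, is widely used as a readout of exposure to such compounds.

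Among gene groups with more than 5 tested members, interferon-stimulated genes had the largest share of falls, and many of them are known to be switched on through an interferon-stimulated response element (ISRE) near the start site. The following RefSeq promoters (GRCh38.p14, the 250 bases before the start, 5′ to 3′ in the direction of the gene) show this element in genes of that group. Capitals mark matches to the letters GAAA followed by any 2 bases and GAAA again on either strand, so that TTTC, any 2 bases and TTTC is the same element read on the other strand, and overlapping matches run together. The windows lie at chr1:78620198-78620447 on the plus strand for IFI44L, chr1:78649539-78649788 on the plus strand for IFI44, chr4:168318753-168319002 on the minus strand for DDX60 and chr4:88456869-88457118 on the plus strand for HERC5.
IFI44L: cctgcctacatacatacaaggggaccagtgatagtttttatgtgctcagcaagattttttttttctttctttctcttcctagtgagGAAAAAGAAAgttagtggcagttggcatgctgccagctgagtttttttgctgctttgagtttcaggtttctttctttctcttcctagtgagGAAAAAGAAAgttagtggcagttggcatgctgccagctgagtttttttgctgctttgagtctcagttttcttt
IFI44: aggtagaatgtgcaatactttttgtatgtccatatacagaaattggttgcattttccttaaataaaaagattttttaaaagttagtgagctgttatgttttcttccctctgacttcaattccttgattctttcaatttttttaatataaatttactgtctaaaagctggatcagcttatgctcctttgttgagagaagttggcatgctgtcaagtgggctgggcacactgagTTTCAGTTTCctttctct
DDX60: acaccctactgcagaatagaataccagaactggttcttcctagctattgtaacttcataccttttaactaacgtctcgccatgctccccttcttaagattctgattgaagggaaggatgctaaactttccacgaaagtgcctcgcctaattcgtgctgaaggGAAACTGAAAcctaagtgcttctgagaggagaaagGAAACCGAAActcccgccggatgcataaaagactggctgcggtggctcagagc
HERC5: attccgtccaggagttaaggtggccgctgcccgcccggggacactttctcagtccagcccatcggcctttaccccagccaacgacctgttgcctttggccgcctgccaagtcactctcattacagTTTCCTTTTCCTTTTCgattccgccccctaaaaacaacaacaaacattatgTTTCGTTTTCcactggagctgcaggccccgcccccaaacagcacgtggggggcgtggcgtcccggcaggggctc
The first 3 belong to the members with a match that fell most, and HERC5 is shown because its log2 fold change was the highest among members with a match. It holds 3 matches and was not called, with a log2 fold change of -0.03 ± 0.08. Matches were found in 244 (2.196%) of the 11110 tested symbols that had a promoter sequence, and in 26 (56.5%) of the 46 interferon-stimulated genes with one.

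Metallothioneins, small cysteine-rich proteins that bind zinc, copper and cadmium, were the group with the largest share of rises. Their promoters are known for metal response elements, whose core is written here as TGCNCNC with A or G at the fourth position. The windows of MT1X (chr16:56682220-56682469) and MT2A (chr16:56608334-56608583), both on the plus strand, are shown in the same way, with capitals for matches to TGCACNC or TGCGCNC on either strand.
MT1X: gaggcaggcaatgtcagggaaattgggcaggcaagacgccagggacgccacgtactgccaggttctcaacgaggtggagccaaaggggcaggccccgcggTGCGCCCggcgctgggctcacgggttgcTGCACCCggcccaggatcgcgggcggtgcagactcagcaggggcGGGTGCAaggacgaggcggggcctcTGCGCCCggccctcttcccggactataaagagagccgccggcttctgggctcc
MT2A: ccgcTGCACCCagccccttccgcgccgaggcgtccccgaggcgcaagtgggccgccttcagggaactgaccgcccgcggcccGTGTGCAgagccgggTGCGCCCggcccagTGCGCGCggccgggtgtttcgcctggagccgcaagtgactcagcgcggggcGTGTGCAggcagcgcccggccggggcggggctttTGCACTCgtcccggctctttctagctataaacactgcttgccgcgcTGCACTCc
MT1X holds 4 matches and MT2A holds 7. This short core is common, and it was found in 33.6% of all promoters of tested symbols.

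Between 35564586 and 38899935 reads were assigned to genes in each DMSO library and between 37733027 and 38404997 in each I-BET 762 library. A count of 0 allows up to 3 reads, or 2.73 to 3.01 normalized counts. No pair of libraries was identical. Within each group, libraries differed by more than counting error. The markers of smooth muscle cells were partly present with DMSO, where ACTA2 had a mean of 7071 and TPM2 of 16475 normalized counts, while ACTG2 and MYOCD had at most 2 reads in any of the 6 libraries. The receptors ESR1 and PGR had at most 4 reads. Of the markers of other cell types, PTPRC, CD68 and LYZ of leukocytes had at most 4 reads, leukocyte CD14 had up to 39 (mean 28.9 normalized counts with DMSO and 20.1 with I-BET 762, -0.49 ± 0.24, not called), and those of endothelial and erythroid cells at most 8, whereas epithelial KRT19 was present at 741 and KRT18 at 289 normalized counts with DMSO. Of 5 tested epithelial markers 4 were lower with I-BET 762, of 9 tested smooth muscle markers 7, and their part in the results below was not tested. In such bulk samples, fewer cells of a type and less RNA per cell cannot be told apart.

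A gene was said to have risen or fallen when its adjusted p-value was under 0.05 (limma, Benjamini-Hochberg adjustment over the 14557 tested symbols) and its fold change over 1.5, that is a log2 fold change beyond 0.585. By this rule 3929 genes (27% of those tested) were called, 1274 (8.75%) higher and 2655 (18.2%) lower with I-BET 762. The shares of 8.75% and 18.2% are those to set beside the counts of each gene group below. Without the fold threshold the calls were nearly even, with 4386 higher and 4639 lower, and the excess of falls appeared among the larger changes. More than 4-fold changes numbered 86 upward and 462 downward. The median log2 fold change of all tested genes was -0.003, and the median of the genes that fell was -1.14 against 0.87 for those that rose. In 71.8% of all tested genes the 3 I-BET 762 libraries did not overlap the 3 DMSO libraries, and this held for 1256 of the 1274 rises and 2635 of the 2655 falls. The strand setting of the counting is not given in the sources used here, and 99 of the 246 genes named in this text have an exon that overlaps one on the other strand, among them HEXIM1, BRD3, BRD2, CRISPLD2, TEX14, TAGLN, CMPK2, MX1, THBS1, CDH3, TRPM8 and TLX3. Values below are means ± SD over the 3 libraries of a group in normalized counts, followed by the log2 fold change ± its standard error.

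**Figure D1:**
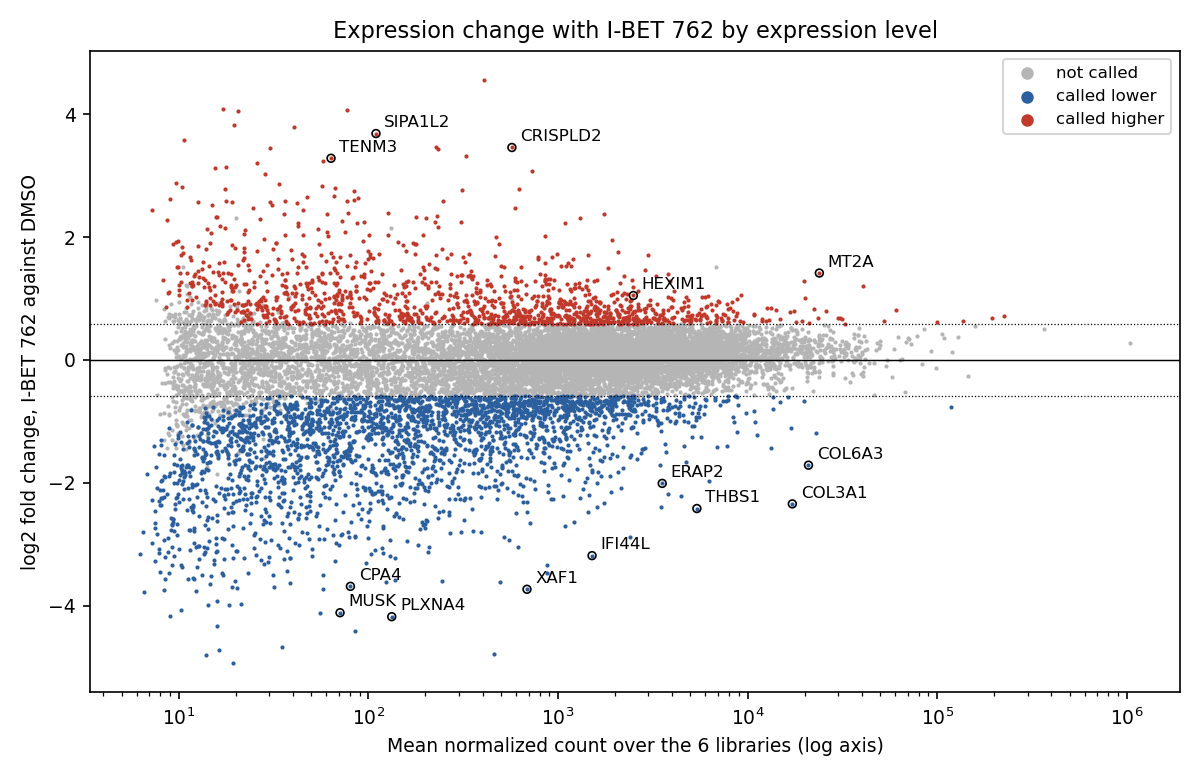
Each point is 1 tested gene, with the mean normalized count over the 6 libraries on a log axis and the log2 fold change of I-BET 762 against DMSO on the vertical axis. Dotted lines mark a fold change of 1.5, and circled genes are named in the text, among them COL3A1 and COL6A3 below zero at high expression and MT2A above it.

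HEXIM1 was measured at 1641, 1639 and 1601 normalized counts with DMSO and 3251, 3528 and 3332 with I-BET 762. All treated libraries lay above the DMSO libraries, and the log2 fold change was 1.05 ± 0.05 (limma, Benjamini-Hochberg adjusted p = 1.93e-10). Its paralog HEXIM2 fell, from 261 ± 31.02 to 146 ± 9.14 (-0.83 ± 0.13), and ELL2, a subunit of the super elongation complex, rose, from 730.1 ± 41.8 to 1424 ± 37.8 (0.96 ± 0.07). The remaining 16 of 19 tested BET and P-TEFb genes did not pass the test. BRD3 was at 1341, 1336 and 1298 normalized counts with DMSO and 1016, 1048 and 1015 with I-BET 762, lower in each treated library without reaching 1.5-fold (-0.37 ± 0.07). BRD2 was read at 6.78, 12.9 and 153 normalized counts with DMSO and 7.87, 16.04 and 21.7 with I-BET 762, and DMSO replicate 15 stood apart from the other 5 libraries. These counts were low beside those of BRD3, and whether they give the true level of BRD2 was not tested. MYC, a transcription factor often described as lowered by BET inhibitors, was higher in each treated library, from 5176 ± 188 to 7517 ± 410.1, with a log2 fold change of 0.54 ± 0.06 that stayed below the threshold.

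The 12 largest rises and the 12 largest falls were taken among called genes with at least 100 normalized counts in the higher group. The treated and DMSO libraries also had to lie apart, so the lack of overlap in these genes is part of the selection. Genes that the paper on these data or earlier results of them had named were left out, so larger changes outside this set exist. SIPA1L2 (chr1:232397965-232630571, hg38), a Rap GTPase-activating protein, was at 11.6, 12.9 and 21.8 normalized counts with DMSO and 203, 195 and 214 with I-BET 762. The groups did not overlap, as the selection required, and its log2 fold change was 3.69 ± 0.18 (limma, Benjamini-Hochberg adjusted p = 1.83e-10). CRISPLD2, a secreted glycoprotein, was at 100.7, 94.3 and 88.3 normalized counts with DMSO and 988, 1075 and 1084 with I-BET 762 (3.46 ± 0.09). TEX14, which is required for the bridges between germ cells, was at 148, 172 and 142 normalized counts with DMSO and 1182, 1319 and 1431 with I-BET 762 (3.08 ± 0.08). In each of these genes every treated library lay far above every DMSO library. The others ranged from 2.78 to 3.46 on the log2 scale. AMPH (amphiphysin, which bends membranes in endocytosis) rose from 16.1 ± 4.23 to 117 ± 8.44 (2.81 ± 0.19), and DNAJC6 (auxilin, which strips clathrin from vesicles) rose from 13.1 ± 0.426 to 100.3 ± 17.5 (2.83 ± 0.19). BAIAP3, a Munc13-related protein of dense-core vesicles, rose from 158 ± 9.79 to 1087 ± 11.5 (2.78 ± 0.08). DPYSL3, a collapsin response mediator of growth cones, rose from 59.2 ± 10.3 to 593 ± 24.2 (3.32 ± 0.11), and TENM3, a teneurin that acts in synaptic adhesion, rose from 11.2 ± 2.86 to 116 ± 2.97 (3.28 ± 0.19). TPPP, which promotes tubulin polymerization, rose from 37.9 ± 10.05 to 418 ± 6.51 (3.46 ± 0.15), the lipid flippase ATP8A1 rose from 38.3 ± 1.298 to 426 ± 32.1 (3.44 ± 0.12), and the ubiquitin ligase TRIM36 rose from 78.9 ± 6.96 to 546 ± 31.4 (2.78 ± 0.10). The membrane protein TMEM132B rose from 10.3 ± 1.21 to 106 ± 14.4 (3.24 ± 0.17).

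The falls in this set included interferon-induced, muscle, keratin and secreted genes. PLXNA4, a plexin that relays semaphorin signals (chr7:132123340-132648688), was at 312, 215 and 231 normalized counts with DMSO and 14.8, 12.03 and 11.8 with I-BET 762. Every treated library lay far below the lowest DMSO library, and the log2 fold change was -4.18 ± 0.40 (limma, Benjamini-Hochberg adjusted p = 2.6e-07). MUSK, the receptor tyrosine kinase of the neuromuscular junction, was at 124, 137 and 144 normalized counts with DMSO and 5.904, 6.02 and 8.86 with I-BET 762 (-4.12 ± 0.35). TAGLN, the actin-binding protein SM22 of smooth muscle, was at 1579.6, 1651 and 1565 normalized counts with DMSO and 165, 143 and 161 with I-BET 762 (-3.34 ± 0.11). As in the whole set, groups without overlap were required by the selection. XAF1, an interferon-induced antagonist of the apoptosis inhibitor XIAP, fell from 1277 ± 32.9 to 96.5 ± 21.3 (-3.74 ± 0.15), and MX2, a dynamin-like antiviral GTPase, fell from 231 ± 28.2 to 17.8 ± 0.191 (-3.62 ± 0.52). Falls of secreted proteins included the carboxypeptidase CPA4, from 149.6 ± 11.7 to 11.2 ± 4.43 (-3.69 ± 0.67), and SERPINF1, the pigment epithelium-derived factor, from 105 ± 6.54 to 9.93 ± 6.26 (-3.50 ± 0.45). KRT15, a keratin of basal epithelium, fell from 255 ± 7.23 to 20.8 ± 5.75 (-3.58 ± 0.28), the kinase-like DIPK1B fell from 919.9 ± 22.8 to 74.3 ± 5.97 (-3.61 ± 0.16), and the zinc finger gene ZNF532 fell from 1609.8 ± 27.5 to 144 ± 12.8 (-3.47 ± 0.10). Both noncoding RNAs in the set, LINC00707 (from 106 ± 5.26 to 5.28 ± 1.495, -4.11 ± 0.43) and DLGAP1-AS3 (from 108 ± 4.08 to 7.92 ± 4.499, -3.74 ± 0.37), came close to the detection limit with I-BET 762.

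**Figure D2:**
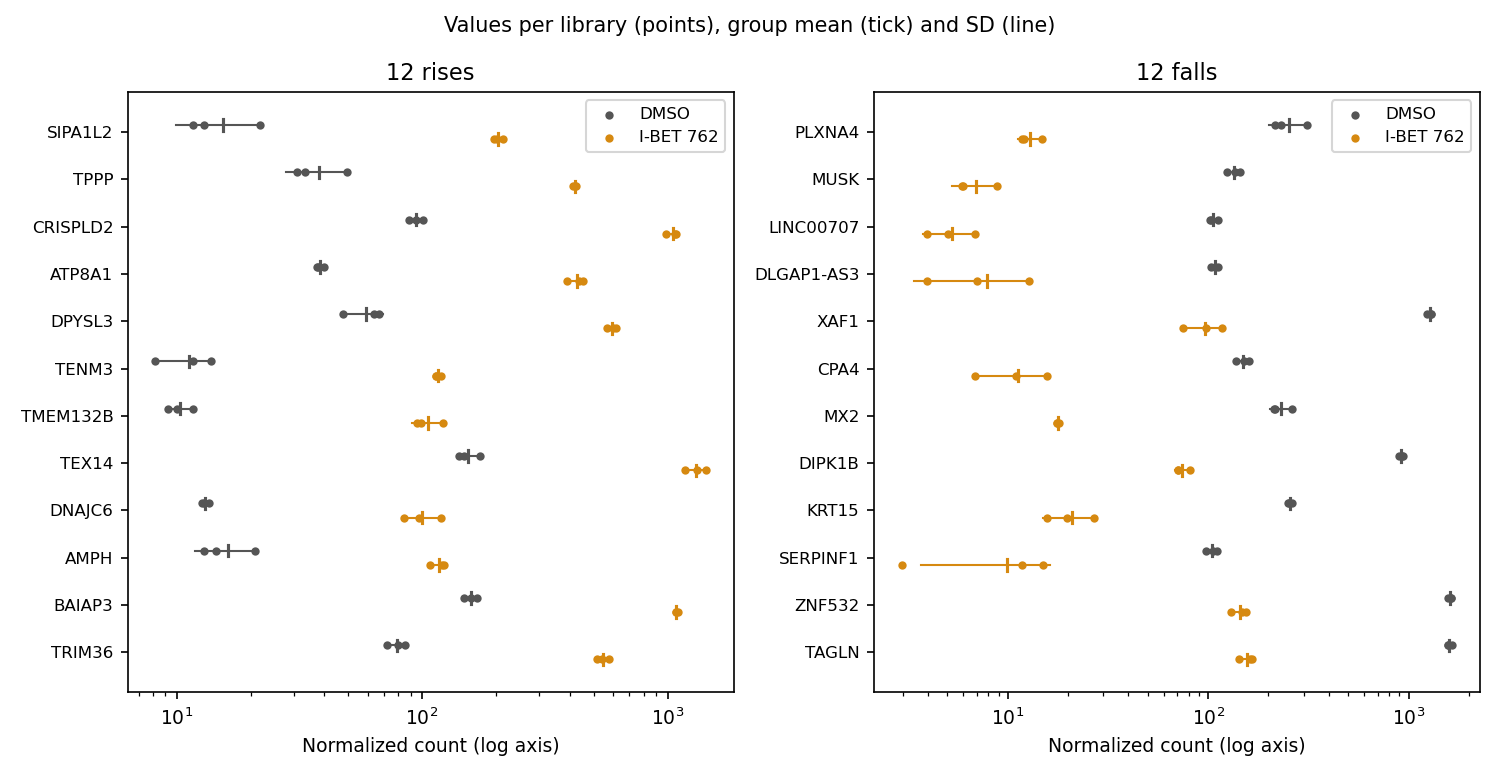
Normalized counts on a log axis of the 12 rises and 12 falls described here, the largest after genes named in the paper or in earlier results were set aside, with 1 point per library, a tick at the group mean and a line for ± 1 SD. The genes were chosen so that the 3 I-BET 762 libraries do not overlap the 3 DMSO libraries.

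Antiviral genes of the interferon response fell widely. Of 60 tested, 49 (81.7%, beside 18.2% of all tested genes) fell and 0 rose, with a median log2 fold change of -1.51. IFI44L was at 2752, 2668 and 2760.1 normalized counts with DMSO and 313, 302 and 282 with I-BET 762, a log2 fold change of -3.19 ± 0.08 (limma, Benjamini-Hochberg adjusted p = 1.26e-13). CMPK2, a mitochondrial nucleotide kinase next to RSAD2, was at 223, 191 and 217 normalized counts with DMSO and 19.7, 40.1 and 17.7 with I-BET 762 (-3.07 ± 0.33). MX1, the cytoplasmic counterpart of MX2, was at 4353, 4316 and 4024 normalized counts with DMSO and 559.9, 557 and 601 with I-BET 762 (-2.88 ± 0.06). The groups did not overlap in any of the 3. The members that did not pass included ZC3HAV1 (0.00 ± 0.05), an RNA-binding antiviral factor, and IFITM3 (-0.37 ± 0.05), which blocks viral entry. Members with an ISRE match in the promoter had a median log2 fold change of -1.46 and those without one -1.64. Of the 1966 genes that fell and had a promoter sequence, 68 (3.46%) held a match, and 20 of these 68 were interferon-stimulated genes of this list. Of the 940 such genes that rose, 14 (1.49%) held one, beside 2.196% of all tested symbols with a sequence.

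The receptors and signal relays above these genes did not move as one group. Of 36 tested genes of interferon sensing and JAK-STAT signalling, 4 rose (11.1%, near the 8.75% of all genes). Another 10 fell (27.8%, beside 18.2% of all genes), and the median was -0.14. JAK1, the kinase bound to most interferon receptors, rose from 10307 ± 543 to 18015 ± 147 (0.81 ± 0.05), IFNGR1, a receptor chain for interferon gamma, rose from 1515 ± 52.4 to 2319 ± 52.03 (0.61 ± 0.06, but below the fold threshold at 0.52 with libraries scaled to equal totals and at 0.576 with equal upper quartiles), and IFNAR2, a receptor chain for type I interferons, rose from 40.3 ± 5.75 to 75.6 ± 14.5 (0.88 ± 0.19). In contrast, TLR3, the endosomal sensor of double-stranded RNA, fell from 914 ± 54.4 to 123.5 ± 10.8 (-2.88 ± 0.12), and STING1, the adaptor of cytosolic DNA sensing, fell from 83.5 ± 7.77 to 11.2 ± 3.32 (-2.82 ± 0.35). STAT5A fell from 872 ± 48.3 to 205 ± 23.2 (-2.09 ± 0.11), while STAT2 (-0.26 ± 0.07), which carries the interferon signal, did not pass the test. SOCS1, a feedback inhibitor of JAK kinases, rose from 28.2 ± 5.97 to 52.2 ± 0.973 (0.89 ± 0.23) and its relative SOCS2 fell from 240.3 ± 31.5 to 91.2 ± 17.3 (-1.40 ± 0.16).

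Antigen presentation showed 10 falls (55.6%, beside 18.2% of all genes) and 0 rises in 18 tested genes (median -0.63). The peptide-trimming enzymes of the endoplasmic reticulum fell, ERAP2 from 5686 ± 281 to 1410.2 ± 63.3 (-2.01 ± 0.06) and ERAP1 from 2171 ± 83.01 to 925 ± 22.5 (-1.23 ± 0.06). HLA-F, a nonclassical class I gene, fell from 116 ± 26.4 to 41.6 ± 6.74 (-1.44 ± 0.27), and PDCD1LG2, a ligand of the T cell receptor PD-1, fell from 17.7 ± 1.095 to 4.94 ± 2.58 (-1.74 ± 0.54). B2M (0.18 ± 0.08), the light chain of class I molecules, did not pass the test. Reads of the HLA genes can be split between near-identical copies and alternate contigs, so their values are uncertain.

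Cytokines, chemokines and their receptors showed 32 falls and 7 rises among 65 tested genes (median -0.71), and the share that rose, 10.8%, was near the 8.75% of all genes. IL11, a cytokine of the IL-6 family, was at 31.96, 28.7 and 34.6 normalized counts with DMSO and 1.97, 6.02 and 0.984 with I-BET 762 (-3.24 ± 0.52), TNFRSF8, the receptor CD30, fell from 46.5 ± 6.77 to 4.64 ± 2.54 (-3.18 ± 0.52), and TNFSF12, the ligand TWEAK, fell from 24.98 ± 5.08 to 2.303 ± 1.496 (-3.05 ± 0.59). The receptor of TWEAK moved the other way, since TNFRSF12A rose from 1245 ± 56.97 to 3213 ± 90.4 (1.37 ± 0.09). LIFR, a signalling chain for leukemia inhibitory factor, rose from 930.1 ± 24.7 to 2291 ± 59.4 (1.30 ± 0.06), and IL1RAP, the shared chain of IL-1 family receptors, rose from 104 ± 13.3 to 288 ± 5.69 (1.47 ± 0.12). Among NF-kB factors and their feedback genes, 7 of 23 fell (30.4%, beside 18.2% of all genes, and 11 with equal totals) and 1 rose (4.35%). ICAM1, an adhesion molecule for leukocytes, fell from 91.2 ± 15.99 to 15.5 ± 3.99 (-2.50 ± 0.25) and TNFAIP3, the deubiquitinase A20, fell from 253 ± 24.4 to 95.4 ± 6.83 (-1.40 ± 0.12), whereas SOD2, the mitochondrial superoxide dismutase, rose from 5671 ± 205 to 10126 ± 212 (0.84 ± 0.05). NFKBIA was not called (-0.17 ± 0.05).

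Complement and clotting genes included rises and falls. The proteases that start the classical complement pathway fell, C1R from 591 ± 22.7 to 109.6 ± 8.38 (-2.42 ± 0.14) and C1S from 193 ± 22.8 to 42.3 ± 9.39 (-2.18 ± 0.22), as did their inhibitor SERPING1, from 229.9 ± 9.05 to 93.1 ± 5.52 (-1.30 ± 0.15). Rises were seen in PLAU, the urokinase that activates plasminogen, from 3948 ± 81.8 to 8049.5 ± 73.3 (1.03 ± 0.05), in SERPINE2, an inhibitor of thrombin and urokinase, from 126 ± 13.1 to 417 ± 21.8 (1.72 ± 0.09), and in CLU, the secreted chaperone clusterin, from 2266 ± 133 to 5523 ± 308 (1.28 ± 0.07). Over the 24 tested genes of the group 5 rose (20.8%, beside 8.75% of all genes) and 7 fell (29.2%, beside 18.2%).

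**Figure D3:**
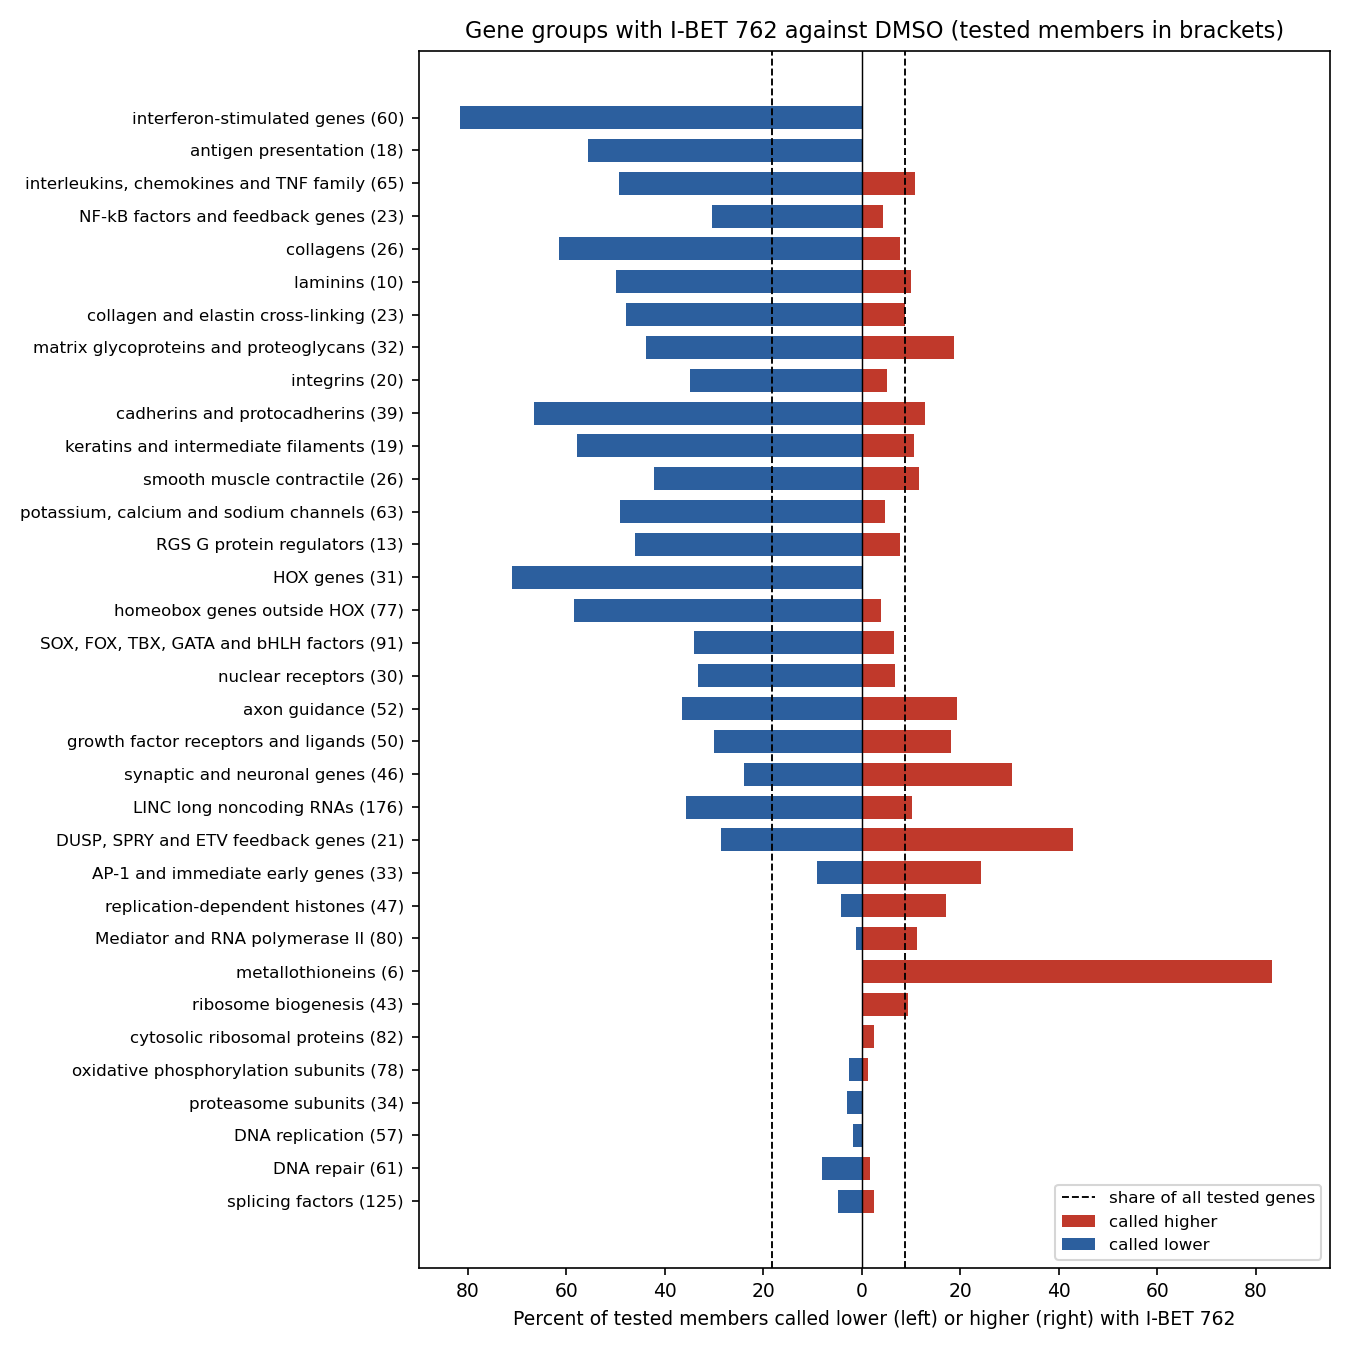
Percent of the tested members of each gene group called lower (bars to the left) or higher (bars to the right) with I-BET 762 against DMSO, with the number tested in brackets. Dashed lines mark the shares over all tested genes, 18.2% lower and 8.75% higher.

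Collagens, the main fibres of the extracellular matrix, fell in most tested members. Of 26 tested collagen genes, 16 fell (61.5%) and 2 rose (median -0.86). COL3A1, the fibrillar collagen of vessels and uterus (chr2:188974373-189012746), was at 29612, 27402 and 29335 normalized counts with DMSO and 5806, 5981 and 5232 with I-BET 762. The groups lay far apart, and the log2 fold change was -2.34 ± 0.07 (limma, Benjamini-Hochberg adjusted p = 1.56e-12). COL6A3, a chain of the microfibrillar collagen VI, was at 36199, 28433 and 31862 normalized counts with DMSO and 9614, 9816 and 9843 with I-BET 762 (-1.71 ± 0.10), while its partner chains COL6A1 (0.06 ± 0.09) and COL6A2 (0.02 ± 0.10) did not pass the test. COL1A1, of collagen I, fell from 174 ± 42.5 to 36.98 ± 1.901 (-2.18 ± 0.28), COL8A2, of the short-chain collagen VIII, fell from 247 ± 12.8 to 41.99 ± 10.8 (-2.56 ± 0.21), and the transmembrane COL17A1 fell from 1187 ± 30.4 to 303 ± 20.3 (-1.97 ± 0.10). The 2 that rose were COL2A1 of cartilage, from 22.7 ± 0.826 to 86.8 ± 3.28 (1.89 ± 0.16), and COL18A1, the source of endostatin, from 1291 ± 92.8 to 2216 ± 65.7 (0.78 ± 0.12). COL5A2, with a log2 fold change of 0.00 ± 0.06, was not called.

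Of 23 enzymes that cross-link collagen and elastin, 11 fell (47.8%, beside 18.2% of all tested genes) and 2 rose (8.70%, near the 8.75% of all genes). The falls were seen in the lysyl oxidases LOXL4 (from 64.2 ± 12.1 to 10.2 ± 2.41, -2.54 ± 0.31), LOXL3 (from 142 ± 17.02 to 37.9 ± 5.498, -1.88 ± 0.20) and LOX (from 37.1 ± 5.38 to 12.5 ± 1.97, -1.50 ± 0.28), and in ADAMTS2, which removes the collagen N-propeptide (from 259 ± 15.9 to 81.8 ± 16.01, -1.67 ± 0.17), among others. The 2 rises were TLL2, a tolloid-like protease (1.27 ± 0.17), and P4HA3, a prolyl hydroxylase subunit (0.81 ± 0.22). Laminins, the chains of basement membranes, showed 5 falls (50%) and 1 rise (10%, near the 8.75% of all genes) in 10. LAMA2 fell from 2391 ± 134 to 518 ± 28.8 (-2.20 ± 0.08) and LAMB3 fell from 91.1 ± 3.29 to 9.24 ± 2.47 (-3.20 ± 0.47), whereas LAMA1 rose from 19.00 ± 2.05 to 103 ± 11.7 (2.37 ± 0.18). The laminin median of -0.57 moved between -0.80 and -0.39 when each library was left out in turn. Of 32 matrix glycoproteins and proteoglycans, 14 fell (43.75%) and 6 rose (18.75%). THBS1, the adhesive glycoprotein thrombospondin, was at 9375, 8972 and 8957 normalized counts with DMSO and 1495, 1696 and 1936 with I-BET 762 (-2.42 ± 0.08), and LTBP2, a microfibril protein, fell from 196 ± 22.6 to 39.6 ± 4.16 (-2.28 ± 0.30). The matricellular genes CCN2 (from 259.7 ± 29.1 to 613 ± 95.3, 1.23 ± 0.10) and CCN1 (from 1128 ± 142 to 2177 ± 269, 0.95 ± 0.09) rose.

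Integrins, the cell's receptors for this matrix, fell in 7 (35%, beside 18.2% of all genes) and rose in 1 (5%, beside 8.75%) of 20. ITGA4 fell from 625 ± 29.3 to 90.6 ± 16.3 (-2.79 ± 0.18) and ITGA9 fell from 218 ± 13.4 to 45.9 ± 5.99 (-2.23 ± 0.17), both alpha chains that pair with ITGB1, which was not called (0.01 ± 0.06). ITGB3, the beta chain of the vitronectin receptor, rose from 32.4 ± 2.14 to 157 ± 5.38 (2.24 ± 0.13). Proteases and their inhibitors were more even, with 7 rises and 9 falls in 30, including a rise of TIMP3, an inhibitor of metalloproteases bound to the matrix (from 503 ± 35.9 to 1260.3 ± 77.02, 1.32 ± 0.07), and a fall of the membrane protease ADAM33 (from 232 ± 15.4 to 39.3 ± 5.45, -2.54 ± 0.27).

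Cadherins and protocadherins, which hold cells together through calcium-dependent contacts, showed 26 falls and 5 rises in 39 (median -1.18). CDH3, the placental cadherin, was at 189, 170.1 and 166 normalized counts with DMSO and 29.5, 18.05 and 21.7 with I-BET 762 (-2.89 ± 0.23), and PCDHGA10, of the gamma protocadherin cluster, was at 216, 211 and 223 normalized counts with DMSO and 20.7, 24.1 and 26.6 with I-BET 762 (-3.14 ± 0.20). Neither pair of groups overlapped. CDH2, the neural cadherin, was not called (0.24 ± 0.11), and CDH23 rose from 79.2 ± 8.13 to 157 ± 2.04 (0.99 ± 0.13). The gamma protocadherin genes share 3′ exons, so reads cannot be assigned to single members with certainty.

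Genes of the contractile apparatus and of intermediate filaments fell more often than tested genes as a whole. Of 26 tested smooth muscle genes, 11 fell (42.3%, beside 18.2% of all tested genes). Another 3 rose (11.5%, near the 8.75% of all genes), and the median was -0.54. CNN1, the actin-binding calponin, was at 84.3, 110.02 and 91.9 normalized counts with DMSO and 21.6, 11.03 and 10.8 with I-BET 762 (-2.70 ± 0.30), LMOD1, which nucleates actin filaments, fell from 160.03 ± 8.62 to 49.4 ± 13.6 (-1.71 ± 0.21), and MYL9, the regulatory myosin light chain, fell from 2532 ± 45.7 to 1049.5 ± 59.9 (-1.27 ± 0.07). ACTA2, the smooth muscle actin, fell from 7071 ± 225 to 3350.02 ± 56.7 (-1.08 ± 0.08). PDLIM5, a Z-disc adaptor, rose from 112 ± 9.97 to 281 ± 17.3 (1.33 ± 0.11). Smooth muscle myosin kinase MYLK (-0.12 ± 0.10) and smoothelin, SMTN (0.20 ± 0.08), did not pass the test. Among 19 keratins and other intermediate filaments, 11 fell (57.9%) and 2 rose (10.5%, near the 8.75% of all genes). DES, the desmin of muscle, fell from 187 ± 0.5696 to 20.1 ± 1.47 (-3.16 ± 0.40), KRT81, a hair keratin, from 1105 ± 66.6 to 133 ± 12.2 (-3.04 ± 0.14), and KRT80 from 327 ± 20.1 to 47.5 ± 3.71 (-2.76 ± 0.16). KRT81 and KRT86 have reads that may be split between them. SYNM (synemin) rose from 731 ± 29.6 to 1717 ± 70.8 (1.23 ± 0.08) and INA (internexin) rose from 893 ± 14.4 to 1975 ± 86.1 (1.14 ± 0.06), while VIM, the vimentin of mesenchymal cells, was not called (0.12 ± 0.06).

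Long noncoding RNAs with a LINC name fell in 63 (35.8%) and rose in 18 of 176, with a median of -0.47. LINC01647 rose from 7.44 ± 1.64 to 60.1 ± 4.93 (2.87 ± 0.25) and LINC02742 fell from 35.7 ± 7.55 to 2.97 ± 0.984 (-3.22 ± 0.61). The functions of most of them are not known.

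Voltage-gated and related ion channels fell in 31 and rose in 3 of 63 tested genes (median -0.60). TRPM8, the cold-sensing cation channel, was at 122, 120.2 and 100.1 normalized counts with DMSO and 7.87, 21.1 and 19.7 with I-BET 762 (-2.85 ± 0.37), KCNMB2, an accessory chain of the BK potassium channel, fell from 149 ± 21.4 to 28.7 ± 2.94 (-2.33 ± 0.24), and CACNG7, a regulator of calcium channels and glutamate receptors, fell from 58.96 ± 12.8 to 4.27 ± 2.996 (-3.70 ± 0.52). KCNMA1, the pore of the BK channel, was not called (-0.48 ± 0.06). The rises included TRPC1 (from 166 ± 4.22 to 285 ± 22.8, 0.77 ± 0.10) and SCN3B (from 7.06 ± 5.09 to 19.5 ± 6.51, 1.49 ± 0.45). RGS genes, which speed the shut-off of G proteins, fell in 6 of 13, among them RGS9 (from 324 ± 18.6 to 86.9 ± 6.42, -1.89 ± 0.14) and RGS14 (from 590.2 ± 15.7 to 204 ± 24.2, -1.54 ± 0.11), and RGS2 rose (from 164 ± 39.8 to 252 ± 13.6, 0.65 ± 0.17, but 0.46 and not called without DMSO replicate 13). RGS2 was also not called with libraries scaled to equal totals (0.55).

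Developmental transcription factors were the other large group with falls. Of 77 homeobox genes outside the HOX clusters, 45 fell (58.4%) and 3 rose (median -0.72). TLX3, a selector of sensory neurons, was at 52.3, 48.1 and 52.8 normalized counts with DMSO and 1.97, 3.01 and 10.8 with I-BET 762 (-3.32 ± 0.68), ALX4, of skull and limb, fell from 65.7 ± 4.03 to 6.26 ± 2.25 (-3.24 ± 0.36), and POU6F1 fell from 98.2 ± 8.94 to 12.2 ± 2.09 (-2.92 ± 0.29). The rises were POU3F1 (from 3.698 ± 1.76 to 16.2 ± 0.509, 1.94 ± 0.39), MSX2 (from 39.8 ± 3.56 to 72.7 ± 9.29, 0.85 ± 0.16) and VAX2 (from 119.6 ± 9.92 to 185 ± 15.5, 0.63 ± 0.15), which was not called without DMSO replicate 15 (0.56) or with equal totals (0.53). In the HOX clusters 22 of 31 fell and 0 rose, and the HOXB genes HOXB2 (0.16 ± 0.13), HOXB3 (0.13 ± 0.09) and HOXB4 (0.12 ± 0.09) were among the 9 not called. Among 91 factors of the SOX, FOX, TBX, GATA, KLF and related families, 31 fell and 6 rose. FOXF2, a factor of mesenchyme, fell from 207 ± 24.1 to 32.3 ± 10.8 (-2.70 ± 0.26), NPAS4, a neuronal activity gene, fell from 54.5 ± 10.6 to 5.004 ± 1.05 (-3.21 ± 0.35), KLF2 rose from 80.00 ± 17.5 to 167 ± 32.3 (1.06 ± 0.24) and FOXO1, a target of insulin signalling, rose from 42.6 ± 1.96 to 88.5 ± 7.74 (1.03 ± 0.17). Nuclear receptors showed 10 falls (33.3%) and 2 rises (6.67%, beside 8.75% of all genes) in 30, with NR5A1 (steroidogenic factor) falling from 83.7 ± 6.23 to 14.5 ± 2.22 (-2.45 ± 0.30), RARG, a retinoic acid receptor, falling from 2303 ± 102 to 850.4 ± 57.9 (-1.44 ± 0.08), and VDR, the vitamin D receptor, rising from 93.8 ± 19.2 to 223 ± 12.7 (1.26 ± 0.15).

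**Figure D4:**
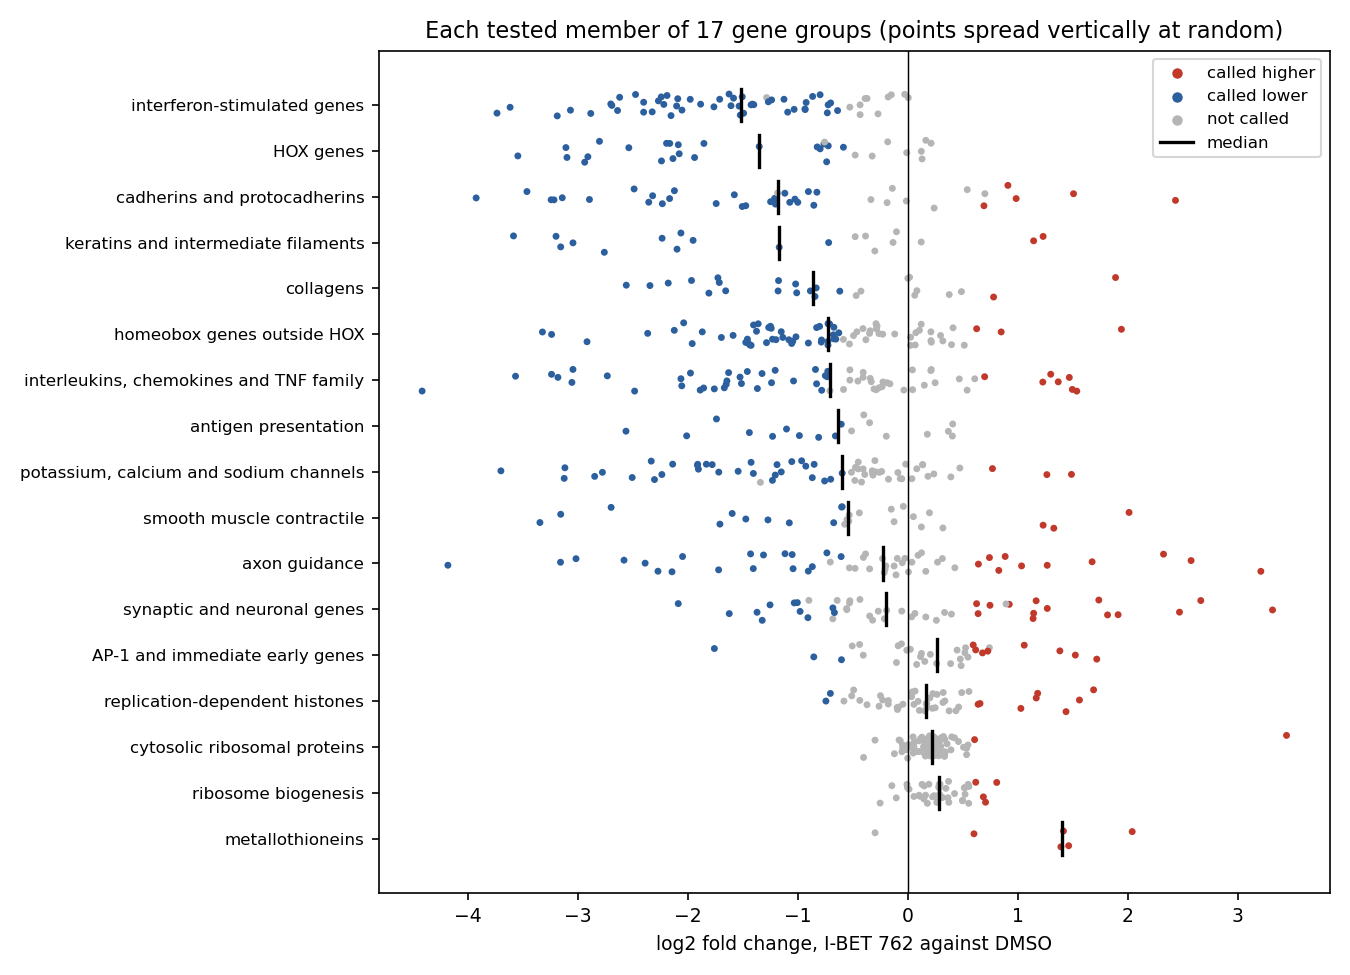
Log2 fold change of each tested member of 17 gene groups, coloured by call, with a black bar at the group median. The bars run from -1.51 for interferon-stimulated genes to 1.40 for metallothioneins, and members of the axon guidance and synaptic groups lie on both sides of zero.

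Guidance, growth factor and neuronal genes changed in both directions beyond the shares over all genes. Of 52 tested guidance genes, 19 fell (36.5%) and 10 rose (19.2%). The semaphorin receptor NRP1 (neuropilin) fell from 943 ± 36.1 to 213 ± 16.8 (-2.14 ± 0.12) and the semaphorin SEMA6B fell from 326 ± 4.62 to 39.6 ± 5.69 (-3.02 ± 0.18). EPHA7, an ephrin receptor, fell from 402 ± 25.1 to 66.6 ± 8.795 (-2.58 ± 0.16). The ligand netrin, NTN1, rose from 49.1 ± 13.3 to 155 ± 17.6 (1.68 ± 0.20), its receptor UNC5B rose from 58.7 ± 7.07 to 297 ± 9.12 (2.33 ± 0.11), and the ligand SLIT2 rose from 5.23 ± 3.37 to 33.00 ± 0.797 (2.58 ± 0.34). EFNB2, a transmembrane ephrin ligand, rose from 4.67 ± 3.32 to 47.1 ± 15.04 (3.21 ± 0.36). Among 46 synaptic and neuronal genes, 14 rose (30.4%) and 11 fell, but with equal totals falls outnumbered rises, at 15 against 12. BSN, the active-zone scaffold bassoon, was at 19.4, 17.6 and 14.6 normalized counts with DMSO and 96.4, 118 and 128 with I-BET 762 (2.66 ± 0.19), and SYT11, a synaptotagmin, rose from 71.6 ± 2.68 to 273 ± 20.9 (1.91 ± 0.11). SNAP25, a membrane fusion protein, fell from 199 ± 36.04 to 77.9 ± 2.89 (-1.32 ± 0.16) and GRIK4, a kainate receptor subunit, fell from 31.3 ± 8.97 to 6.598 ± 2.03 (-2.09 ± 0.45).

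Growth factors and their receptors included 9 rises and 15 falls in 50. FGFR3 was at 579, 566 and 562 normalized counts with DMSO and 1706, 1776 and 1629 with I-BET 762 (1.58 ± 0.07), FGFR2 rose from 59.3 ± 8.88 to 228 ± 24.2 (1.93 ± 0.14), and FGF18, one of their ligands, rose from 30.1 ± 5.95 to 144 ± 7.17 (2.24 ± 0.16). KITLG, the ligand of the receptor KIT, rose from 14.00 ± 0.687 to 71.1 ± 19.1 (2.23 ± 0.19). The insulin-like growth factor binding proteins IGFBP5 (from 374 ± 44.3 to 44.6 ± 5.65, -3.04 ± 0.28) and IGFBP3 (from 263 ± 9.66 to 97.4 ± 6.41, -1.42 ± 0.11) fell, and TYRO3, a receptor of the TAM family, fell from 2356 ± 68.5 to 663 ± 36.2 (-1.83 ± 0.07). Feedback genes of the ERK pathway, which lies downstream of these receptors, rose in 9 (42.9%) and fell in 6 of 21. ETV5, an ETS factor, was at 469.7, 440.1 and 429 normalized counts with DMSO and 1359, 1417 and 1496 with I-BET 762 (1.67 ± 0.07), DUSP6, the phosphatase of ERK, rose from 381 ± 48.1 to 839.7 ± 2.998 (1.15 ± 0.08), and SPRY4 (Sprouty) rose from 594 ± 34.4 to 1162 ± 75.8 (0.97 ± 0.08). DUSP9, a related phosphatase, fell from 188 ± 18.96 to 42.2 ± 8.08 (-2.14 ± 0.18). In the Notch pathway 10 of 29 fell (34.5%), with the ligand JAG1 falling from 1076 ± 61.4 to 284 ± 16.9 (-1.92 ± 0.14), and 5 rose (17.2%), with HES6 rising from 78.7 ± 17.5 to 372 ± 38.1 (2.25 ± 0.18).

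Immediate early genes, which respond within minutes to stimuli, showed 8 rises and 3 falls in 33 (median 0.26), and with equal totals 5 rises and 4 falls. ATF3, a stress-induced factor, rose from 191 ± 15.7 to 499.5 ± 30.3 (1.38 ± 0.09), IER3 rose from 52.6 ± 2.35 to 176 ± 16.4 (1.72 ± 0.11) and ARC rose from 39.7 ± 8.32 to 115 ± 6.895 (1.52 ± 0.16). BATF3 fell from 208 ± 1.72 to 60.7 ± 3.72 (-1.76 ± 0.15). FOS (0.26 ± 0.11) and EGR1 (0.48 ± 0.11) did not pass the test. IER3 also stands in the ERK feedback group, and KLF2 in the KLF family above.

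Metallothioneins rose in 5 of 6 tested genes (83.3%, beside 8.75% of all tested genes), with a median of 1.40. MT2A was at 13319.9, 13617 and 12203 normalized counts with DMSO and 36858, 33924 and 33594 with I-BET 762, with a log2 fold change of 1.42 ± 0.07 (limma, Benjamini-Hochberg adjusted p = 1.19e-10). MT1X, whose promoter is shown above, was at 1584, 1624 and 1415 normalized counts with DMSO and 4415, 4012 and 4311 with I-BET 762 (1.46 ± 0.07), MT1A was at 502, 477 and 364 normalized counts with DMSO and 1272, 1107 and 1123 with I-BET 762 (1.39 ± 0.11), and MT3, the form known from brain, rose from 14.3 ± 5.85 to 58.7 ± 4.94 (2.04 ± 0.27). Treated libraries lay above all DMSO libraries in each of them. MT1M rose from 1024 ± 80.8 to 1564 ± 245 (0.60 ± 0.10), but was not called with libraries scaled to equal totals (0.51) or to equal upper quartiles (0.56), without DMSO replicate 15 (0.55) or without I-BET 762 replicate 21 (0.48). MT1F was not called (-0.30 ± 0.12). The MT1 genes are close copies of each other, and reads may be split between them.

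Genes of ribosome production had medians above that of all genes and few calls. Of 43 ribosome biogenesis genes 4 rose (9.302%, near the 8.75% of all genes) and 0 fell, yet the median was 0.29. RRP9, a U3 snoRNP protein, rose from 1421 ± 109 to 2319 ± 153 (0.71 ± 0.07), and RRP12 rose from 2599 ± 34.98 to 4187 ± 126 (0.69 ± 0.06). Cytosolic ribosomal proteins had a median of 0.22 with 2 of 82 called, RPL36A (0.61 ± 0.08, but 0.58 and not called without DMSO replicate 13) and RPL3L (3.44 ± 0.37), the muscle paralog of RPL3. RPL36A was also not called with libraries scaled to equal totals (0.51) or to equal upper quartiles (0.57). Scaling to equal totals moved the median of all genes to -0.099 and these medians to 0.19 and 0.12. Among 80 genes of Mediator, the basal factors and RNA polymerase II, 9 rose (11.2%, near the 8.75% of all genes) and 1 fell, and with equal totals 4 rose and 3 fell. POLR2A, the largest polymerase subunit, from 4109.9 ± 659.8 to 6492 ± 218 (0.67 ± 0.11, and 0.57 with equal totals), TAF3 from 427 ± 16.1 to 847 ± 25.7 (0.99 ± 0.07) and MED20 from 691 ± 19.7 to 1327 ± 70.2 (0.94 ± 0.07) rose, and MED24 fell from 3029 ± 146 to 1778 ± 106 (-0.77 ± 0.08). Replication-dependent histone genes, whose mRNAs lack a poly(A) tail and are kept in total RNA libraries, rose in 8 (17.02%, beside 8.75% of all genes) and fell in 2 of 47, but with equal totals 6 rose and 5 fell. H2BC6 rose from 105 ± 8.36 to 311 ± 10.8 (1.56 ± 0.10) and H3C12 rose from 108 ± 12.8 to 245 ± 36.6 (1.17 ± 0.13), and these genes too are close copies of one another.

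Several housekeeping groups were seldom called. Of 78 subunits of oxidative phosphorylation 1 rose and 2 fell, of 34 proteasome subunits 0 rose and 1 fell, and of 57 DNA replication genes 0 rose and 1 fell. DNA repair genes (1 rise and 5 falls in 61) and splicing factors (3 rises and 6 falls in 125, or 0 and 10 with equal totals) were also seldom called. Genes of mitosis had a median of -0.25, with 1 rise and 4 falls in 60, and 0 rises and 8 falls with equal totals. The falls included FOXM1, a regulator of mitotic genes (from 3728 ± 174 to 1881 ± 57.8, -0.99 ± 0.08), and the kinase AURKA (from 5703 ± 351 to 3031 ± 97.7, -0.91 ± 0.07). Glycolysis and the hypoxia response were not among the seldom called groups. Of 34 genes 3 rose (8.82%, near the 8.75% of all genes), with GAPDH from 169313 ± 3773 to 279264 ± 10834 (0.72 ± 0.08). Another 8 fell (23.5%, beside 18.2% of all genes), with PFKP, a phosphofructokinase, from 4572 ± 117 to 2183 ± 29.6 (-1.07 ± 0.06).

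Transporters and antioxidant genes changed in both directions. Of 217 solute carriers 31 rose (14.3%) and 49 fell (22.6%), beside 8.75% and 18.2% of all tested genes. The choline transporter SLC44A1 rose from 459.95 ± 33.7 to 1515 ± 50.3 (1.72 ± 0.07) and the creatine transporter SLC6A8 rose from 428 ± 5.29 to 1282 ± 76.7 (1.58 ± 0.07), whereas the sodium-calcium exchanger SLC8A1 fell from 105 ± 23.6 to 15.5 ± 7.21 (-2.75 ± 0.39). SLC7A11, the cystine transporter, fell from 2624 ± 26.5 to 875 ± 47.2 (-1.58 ± 0.06) within the NFE2L2 antioxidant group, where 7 of 23 fell and 3 rose, the latter with GCLC, which makes glutathione, from 1578 ± 117 to 2644 ± 143 (0.75 ± 0.07). ABC transporters fell in 10 (32.3%) and rose in 6 (19.4%) of 31. The neighbours ABCA8 (from 2214 ± 40.9 to 557 ± 33.6, -1.99 ± 0.07), ABCA9 (from 34.2 ± 8.31 to 3.94 ± 2.94, -3.02 ± 0.50) and ABCA6 (from 150.2 ± 13.2 to 20.45 ± 7.202, -2.86 ± 0.31) fell, and ABCA3, the lipid pump of lung surfactant, rose from 336 ± 28.9 to 847 ± 63.8 (1.33 ± 0.11). Among lysosomal genes CTSS, a cathepsin of antigen processing, fell from 235.5 ± 3.29 to 25.1 ± 3.92 (-3.19 ± 0.22).

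Falls were also neighbours on the chromosome. When tested genes were put in order along each chromosome (hg38, Gencode V44), 13 stretches of at least 5 consecutive genes were called in the same direction. All 13 consisted of falls, which were also the commoner call, at 18.2% of tested genes beside 8.75% for rises. How many such stretches these shares alone would give was not tested. The longest held 10 genes of the gamma protocadherin cluster (chr5:141355021-141512975), among them PCDHGA10 (-3.14) and PCDHGB7 (-1.47 ± 0.14), and neither PCDHGA1 before it (-1.18 ± 0.65, but -1.73 and called without I-BET 762 replicate 22) nor PCDHGC5 after it (-0.01 ± 0.16) was called. PCDHGA1 was also called when only the 6 compared libraries were fitted (-1.18), so this end of the stretch depends on the fit. In the HOXC cluster 8 consecutive genes fell, from HOTAIR to HOXC4 (chr12:53962308-54056030), next to HOXC12, which was not called (-0.76 ± 0.52), and in the HOXA cluster 7 fell, from HOXA5 to HOXA13 (chr7:27141052-27200091), where the neighbouring HOXA3 (0.21 ± 0.43) did not pass the test. C1S, C1R, C1RL, C1RL-AS1 and CLSTN3 formed a stretch on chromosome 12 (chr12:6988259-7158945), and OAS1, OAS3, OAS2, DTX1 and RASAL1 another (chr12:112905856-113136239). In the S100A stretch (chr1:153543613-153631360), the calcium-binding S100A2 fell from 323 ± 24.7 to 74.6 ± 14.8 (-2.11 ± 0.17) while S100A6, which adjoins the stretch, was not called (-0.20 ± 0.07). A stretch can hold genes that share exons or overlap on opposite strands, as HOXA11 and HOXA11-AS do, and HOXA11-AS (-1.66 ± 0.55) was not called without I-BET 762 replicate 22 (-1.24) or 23 (-1.52). KRT81 and KRT86, near-identical copies, also lay in one stretch, and KRT86 (-2.10 ± 0.70) was not called without DMSO replicate 15 (-1.86).

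**Figure D5:**
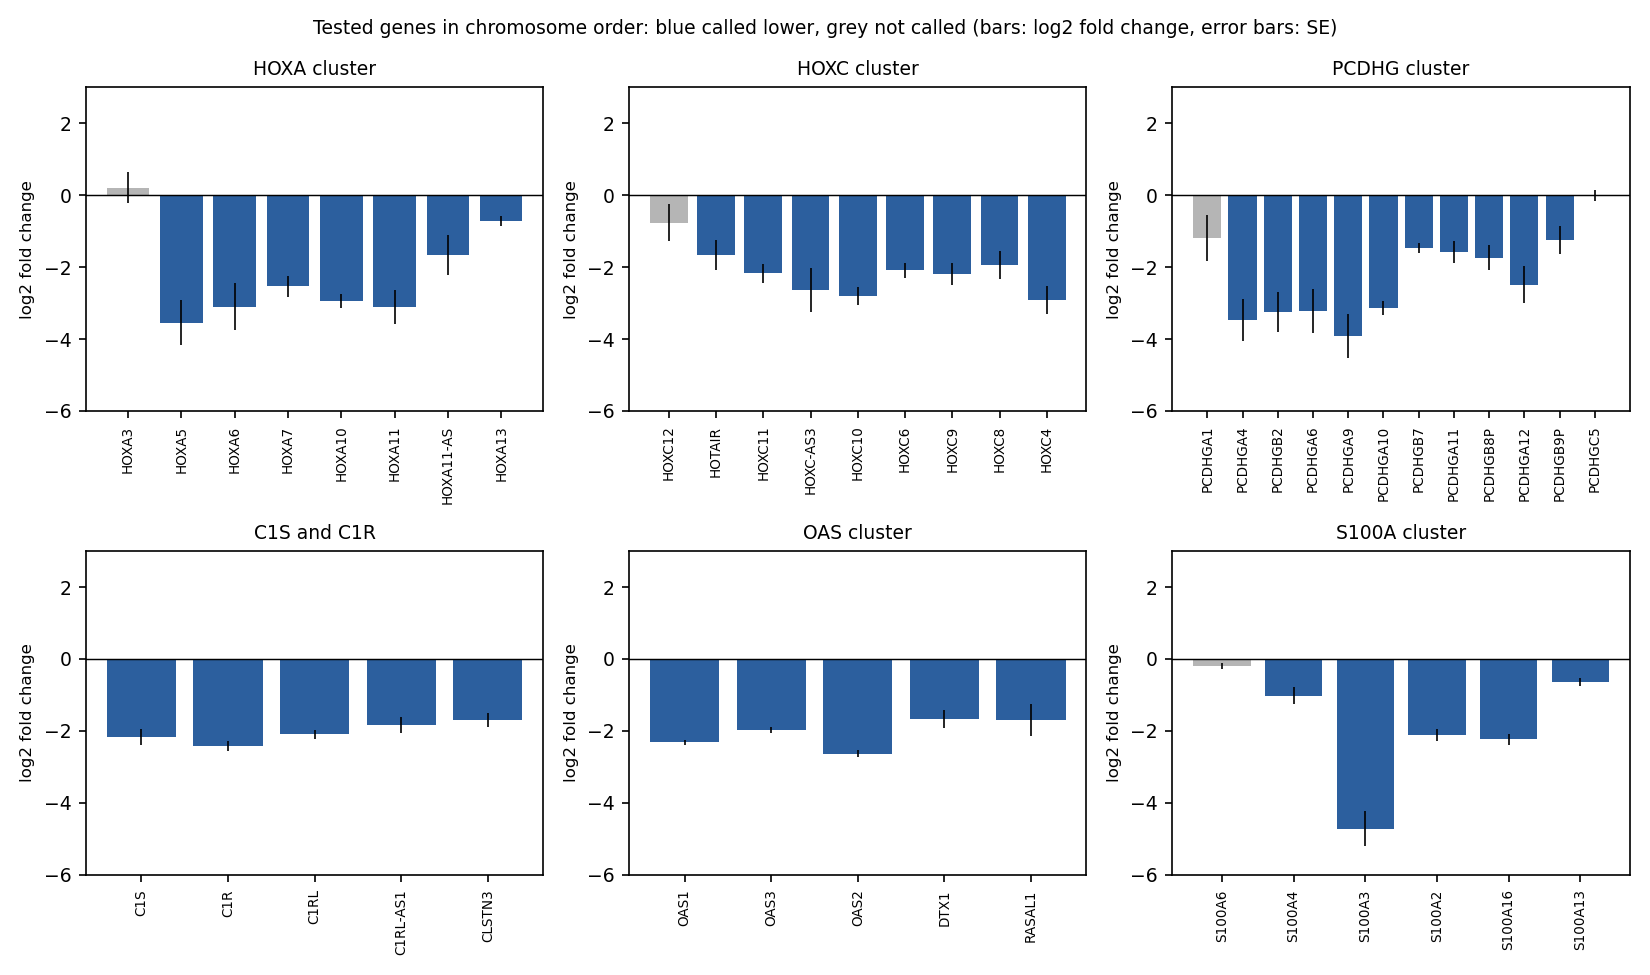
Log2 fold change of I-BET 762 against DMSO, with its standard error, for tested genes in chromosome order in 6 of the 13 stretches and for the next tested gene beside them where the text names it, blue for genes called lower and grey for genes not called. A gene beside a stretch of falls is not called lower by construction, and those shown range from -1.18 for PCDHGA1 to 0.21 for HOXA3.

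JQ1, a BET inhibitor with a thienotriazolodiazepine core where I-BET 762 has a triazolobenzodiazepine, was given at the same dose and time, and the 4 JQ1 libraries were compared directly with the 3 I-BET 762 libraries. Of the 14557 genes, 777 (5.34%) differed, 534 (3.67%) higher and 243 (1.67%) lower with I-BET 762. Of these, 520 were also called between I-BET 762 and DMSO. The change from DMSO was larger with JQ1 in 467 of the 520 and larger with I-BET 762 in 36, and 17 had opposite signs. A gene higher with I-BET 762 than with JQ1 can therefore be one that fell less. Both inhibitors share the DMSO libraries, so the values against DMSO are given side by side and only the direct contrast is tested. The genes named for this contrast were chosen after their values were seen. Immediate early genes stood lower with I-BET 762 than with JQ1 in 15 of 33 and higher in 0, with a median difference of -0.56 on the log2 scale. JQ1 replicates 17 and 19 stood apart from 18 and 20 in some genes, and the 15 became 17 with replicates 17 and 19 only and 7 with 18 and 20 only, an alternative chosen after seeing the data. FOSB was at 108 ± 22.3 with DMSO, 59.4 ± 11.7 with I-BET 762 and 108 ± 14.7 with JQ1 (difference -0.86 ± 0.18, limma, Benjamini-Hochberg adjusted p = 0.00213) and ARC at 39.7 ± 8.32 with DMSO, 115 ± 6.895 with I-BET 762 and 308 ± 40.1 with JQ1 (-1.41 ± 0.15). For ARC both inhibitors lay above DMSO, and for FOSB the mean with JQ1 was that of DMSO. Genes of glycolysis and hypoxia were lower with I-BET 762 in 8 of 34, including LDHA, lactate dehydrogenase, at 40129.8 ± 2418 with DMSO, 45503 ± 3735 with I-BET 762 and 78591 ± 6091 with JQ1 (-0.79 ± 0.07), and ADM, the vasodilator adrenomedullin, at 1225 ± 9.64 with DMSO, 699 ± 38.4 with I-BET 762 and 1298 ± 109 with JQ1 (-0.89 ± 0.07).

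The secreted signals CXCL8 and GAL were lower with I-BET 762 than with JQ1. CXCL8, the neutrophil chemokine, was at 587 ± 66.1 with DMSO, 189 ± 26.7 with I-BET 762 and 314 ± 42.5 with JQ1 (-0.73 ± 0.12). GAL, the neuropeptide galanin, was at 617 ± 47.2 with DMSO, 150.5 ± 33.3 with I-BET 762 and 252 ± 45.5 with JQ1 (-0.75 ± 0.15, and -0.54 and below the fold threshold with JQ1 replicates 18 and 20 only). Each fell with I-BET 762, and the direct test placed each lower than with JQ1 (limma, Benjamini-Hochberg adjusted p = 0.000456 and 0.00167). In the interferon group 8 of 60 were higher with I-BET 762 and 2 were lower. These counts were 14 and 0 with equal totals, 13 and 3 without JQ1 replicate 20, 6 and 0 with JQ1 replicates 18 and 20 only, and 15 and 3 with replicates 17 and 19 only. IFI44L was at 2727 ± 51.1 with DMSO, 299 ± 15.9 with I-BET 762 and 123.3 ± 3.14 with JQ1 (1.27 ± 0.07). Collagens differed in 7 of 26, 7 of them higher with I-BET 762, as COL3A1 was at 28783 ± 1204 with DMSO, 5673 ± 391.9 with I-BET 762 and 2645 ± 264 with JQ1 (1.10 ± 0.07).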

How the data were processed

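RNA from SK-UT-1 cells was sequenced on an Illumina sequencer from strand-specific TruSeq total RNA libraries. Per the labels, the authors used FastQC 0.73, Trimmomatic, HISAT2 2.2.1, featureCounts 2.0.3 and DESeq2 with hg38, and the strand setting of the counting is not given in the sources used here. The authors deposited log2(normalized count + 1) values, normalized with DESeq2, for 22784 symbols and 10 libraries. Undoing the log2 and the added 1 gave whole multiples of 1 step per library for 99.74% to 99.77% of values (tolerance 0.02 reads), from which reads were recovered. Because the unit is log2, no count test was the main one.

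The log2 values of the 10 libraries were fitted in 1 model with limma 3.58.1 (R 4.3.3), empirical Bayes moderation with an intensity trend and Benjamini-Hochberg adjustment, after checking the code on simulated data. Python 3.11.15, pandas 2.3.3 and numpy 2.4.6 were used for tables. The members and lists were chosen with earlier results of these data known. After values were seen, symbols without a homeobox that a naming pattern had caught were removed from the homeobox list. Genes named are the 12 largest rises and falls that the paper and earlier results do not name (at least 100 normalized counts in the higher group, groups that do not overlap), up to 4 called members per list and direction, members whose role the text needs, up to 3 members of each stem, and BRD2, BRD3, HEXIM1 and MYC, and those named for the stretches of neighbouring genes were chosen after their values were seen. Of the tested symbols, 14141 were matched to 1 gene of Gencode V44, and 5948 of these (42.1%) have an exon that overlaps one on the other strand, so their reads may be shared if strand was not used. The same values stand under more than 1 symbol for 145 tested symbols. Promoters are from RefSeq (GRCh38.p14) and cover 11110 tested symbols. Alternatives were pseudocounts of 0.5 and 5, no filter, a mean of at least 100, equal totals, equal upper quartiles, no trend, only the 6 libraries, limma-voom on recovered reads, other fold thresholds and leaving out each library. Some genes that these rules would name are not reported here. Counting limits cover counting error only.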

Additional observations from a re-analysis of the deposited data

How the results depend on the processing

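The counts of 1274 genes higher and 2655 lower with I-BET 762 stayed within 1.5 times under both pseudocounts (1240 to 1277 higher, 2640 to 2650 lower), without the filter (1408 and 3106), without the intensity trend, with only the 6 libraries and with limma-voom on the recovered reads. They ranged from 1244 to 1286 and from 2522 to 2582 when each library was left out in turn. Scaling to equal totals moved the median log2 fold change to -0.099 and the calls to 947 higher and 3055 lower (76.3% of calls lower, beside 67.6%). Other cut-offs moved the counts by construction. Without a fold threshold 4386 genes were higher and 4639 lower, at over 2-fold 474 and 1572, and with a mean of at least 100 normalized counts 1565 were lower among 11146 tested. Leaving out symbols with an exon overlapping one on the other strand, an alternative chosen after seeing the data, left 750 higher and 1581 lower of 8609 tested. The 777 differences between I-BET 762 and JQ1 were 741 to 948 with other scalings or no trend and 682 with the libraries of both inhibitors only. In fits added after seeing the data they ranged from 598 to 867 when each library was left out, and were 1030 with JQ1 replicates 17 and 19 only and 665 with 18 and 20 only. No called gene named here changed direction. Of 77 list medians, 14 had the other sign with equal totals and 7 with equal upper quartiles, all of lists whose medians lie near 0. List medians with genes at the detection limit set to their bound equalled those reported. Depth limits the changes of genes at few reads. No paired analysis was possible because the groups share no replicate number.

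Of the named genes, TPM2 (-0.60) was not called without DMSO replicate 14 (-0.58), DMSO replicate 15 (-0.57) or I-BET 762 replicate 23 (-0.58), and EGR1 was called without I-BET 762 replicate 22 (0.62). The cause was not tested.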

Other observations

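Gene families were also read from the symbols alone, as the 96 stems (the capital letters before the first digit) with at least 15 tested members. The stem RNU, small nuclear RNAs of the spliceosome and their copies, had 14 rises (37.8%) and 0 falls in 37, and RNU5B-1 rose from 31.8 ± 5.23 to 69.04 ± 7.66 (1.10 ± 0.17). Many RNU genes are near-identical copies, so the counts of single members are uncertain. A stem can also hold antisense RNAs, pseudogenes and binding partners. INTS, which holds subunits of the Integrator complex that cuts the 3′ ends of such RNAs, had 4 rises (22.2%) and 0 falls in 18, with INTS8 rising from 4295 ± 139.96 to 7034 ± 119 (0.71 ± 0.06) and INTS7 rising from 2794 ± 112 to 4491 ± 81.7 (0.69 ± 0.06). Another of the rises was the antisense RNA INTS6-AS1, whose call was fragile. It was not called with equal totals (0.61), equal upper quartiles (0.67), no filter (0.71) or limma-voom on recovered reads (0.72). Nor was it called without DMSO replicate 13 (0.76), 14 (0.76) or 15 (0.60), or without I-BET 762 replicate 22 (0.49) or 23 (0.64). SNORD, box C/D small nucleolar RNAs, had 7 rises (18.4%, beside 8.75% of all genes) and 1 fall (2.63%, beside 18.2%) in 38. ARHGEF, mostly exchange factors that switch on small GTPases, had 9 falls (40.9%) and 0 rises in 22, with ARHGEF16 falling from 139.6 ± 12.7 to 18.1 ± 3.33 (-2.89 ± 0.35) and ARHGEF6 falling from 120.3 ± 15.7 to 52.8 ± 4.04 (-1.17 ± 0.19). The stem MAPK had 6 falls in 16, 1 of them in the scaffold gene MAPK8IP2 and others in MAPK13 (from 48.4 ± 9.49 to 7.59 ± 3.97, -2.61 ± 0.41) and MAPK3, the kinase ERK1 (from 1114 ± 30.5 to 372 ± 49.1, -1.59 ± 0.10).

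The share of genes that fell varied with expression, gene type and promoter composition. Of genes with a mean of 100 to 300 normalized counts over the 6 libraries 34.7% fell, and of those with 1000 to 3000 8.82% fell. Long noncoding RNAs fell in 25.9% of 822 and protein-coding genes in 18.6% of 12714. Genes whose 250 bases before the start held under 45% G and C fell in 32.8% of 591, beside 13.9% of 3801 with 65% to 75%. Protein-coding genes over 200 kb fell in 24.9% and rose in 11.3%, beside 16.9% and 9.16% at 50 to 100 kb. On chromosome 21, 21 of 139 genes (15.1%) rose, the highest share among chromosomes 1 to 22 and X. These are descriptions without a test, and the features are not independent of each other.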
